A study of Mus musculus with 6 samples.

Results

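Semaphorins are membrane-bound or secreted guidance proteins, and neuropilins and plexins are their receptors. The RNA of 9 genes of this system was followed in B cells with altered Ikaros: the semaphorin genes Sema4a, Sema4b, Sema4d, Sema5a and Sema7a, the neuropilin genes Nrp1 and Nrp2, and the plexin genes Plxnb2 and Plxnd1. They were taken by name from the 22098 gene names of the deposited table, and all 9 were found. The transcript row with the highest mean stood for each name.

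The cells were IgM+ B cells, sorted out of marrow from C57BL/6 mice aged 6 weeks. Mice were wild type, Ikaros_ZnF1-/- (called ZnF1 here) or Ikaros_ZnF4-/- (called ZnF4), with 2 libraries of each genotype and 6 in all. Ikaros, the product of Ikzf1, is a DNA-binding protein of lymphocyte development, and the mutants carry homozygous changes in its zinc finger 1 or zinc finger 4. The design asks how gene expression depends on each of these fingers. The labels name neither sex nor whether each library came from a separate animal. By the Xist and Ddx3y RNA given below, the 2 libraries of each mutant came from animals of different sex. Their spread is therefore not only technical and includes sex, while that of wild type may be technical. The p-values reflect the spread of these samples.

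Sema4D, known on lymphocytes as CD100, signals to B cells through CD72 and elsewhere through B-class plexins. Sema7A is held at the membrane by a lipid anchor and binds plexin C1 and beta-1 integrins, and Sema4A is a membrane ligand found on activated B cells and dendritic cells. Neuropilins have short cytoplasmic tails, bind secreted class 3 semaphorins and members of the VEGF family, and use plexins as signalling partners, and plexins act inside the cell on small GTPases.

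Levels are given in RPKM (reads per kilobase of transcript per library total), as computed by the authors and rounded by them to steps of 0.1. Fold changes are differences on the scale log2(RPKM + 0.5), which understates the change of low genes. Genes with a mean of at least 1 RPKM over the 6 libraries were tested with limma, and calls needed an adjusted p (Benjamini-Hochberg over 10322 genes) under 0.05. All 9 passed this filter. Nrp1, Nrp2 and Sema5a had a mean below 1 RPKM in both wild type and ZnF1 and passed it only through ZnF4, so their presence among the tested genes already required a high ZnF4 value.

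Every library had a B cell profile, with Cd79b between 1604 and 2227 RPKM and Cd3e of T cells between 0.2 and 0.7. Foxp3, from the same T cell list, was between 2.9 and 3.9 RPKM in every library. The B cell gene Pax5 was at 235.0 and 194.1 RPKM in ZnF1 and 296.9 and 441.7 in wild type. None of the 5 B cell genes listed passed in any comparison, and neither did Foxp3. ZnF1 replicate 2 stood apart with a summed RPKM of 5934 over 10 granulocyte and monocyte markers. That sum was 364.8 and 538.3 for wild type, 1152 for ZnF1 replicate 1, and 1389 and 1459 for the ZnF4 libraries. Wild-type replicate 1 had a plasma cell marker sum of 535.6 RPKM against 59.0 to 147.8 in the other libraries. Most of that sum was Igj, at 413.8. Sdc1 of the same list was at 5.3 and 3.3 RPKM in wild type, 0.6 and 0.4 in ZnF1 and 1.6 and 1.7 in ZnF4. It was called lower in ZnF1 (limma, log2 fold change -2.24, adjusted p = 0.0347). Replicate 2 of each mutant had Ddx3y RNA and no Xist RNA listed, and the other 4 libraries had Xist RNA and no Ddx3y RNA listed. Ikzf1 was at 287.3 and 244.0 RPKM in ZnF4, above the 176.5 and 178.6 of wild type and the 201.1 and 168.4 of ZnF1. A value per transcript does not check the genotypes.

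In wild-type cells the semaphorin RNA was almost wholly that of Sema4d and Sema4b. Sema4d was at 122.5 and 147.5 RPKM and Sema4b at 80.1 and 79.9, which together made 95.4% and 95.8% of the summed RPKM of the 20 semaphorin genes in the table. Sema7a followed at 4.5 and 4.1 RPKM, Sema4a at 1.3 and 1.8 and Sema5a at 0.9 and 1.0. Among receptors, Plxnd1 was at 11.5 and 15.6 RPKM and Plxnb2 at 11.9 and 12.6, and these ranges overlap. Nrp1 was at 0.4 and 0.3 RPKM and Nrp2 at 0.1 in both libraries, the lowest of the 9 and close to the rounding step.

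**Figure D1:**
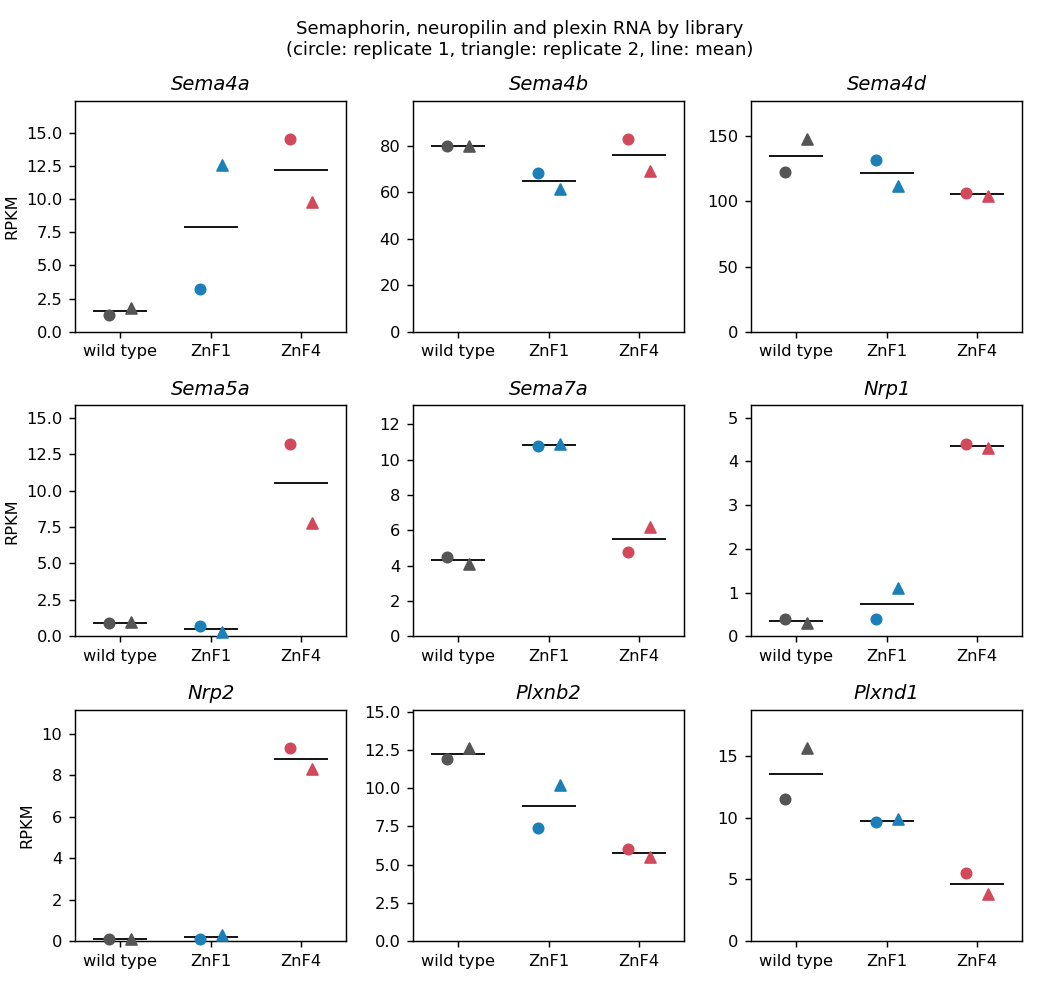
RPKM (linear axis from 0, its own range in each panel) of the 9 genes in the 6 libraries by genotype, with the mean as a line. Nrp1, Nrp2 and Sema5a were high in both ZnF4 libraries, Sema7a was high in both ZnF1 libraries, and Plxnb2 and Plxnd1 were lowest in ZnF4.

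Loss of finger 4 went with higher RNA of both neuropilins and 2 semaphorins and lower RNA of both plexins. Nrp2, Sema5a, Sema4a and Nrp1 rose, Plxnd1 and Plxnb2 fell, and Sema4b, Sema4d and Sema7a did not pass. Thus 4 of the 9 were called higher, where 1.78% of all tested genes were, and 2 were called lower, where 1.41% were. The libraries of the 2 genotypes did not overlap for 8 of the 9 (Sema4b overlapped), as for 50.4% of all tested genes. The median log2 fold change of the 9 was 0.31, against -0.02 for all tested genes, but the filter favoured 3 of them. The genes had been chosen with results of these libraries known.

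Nrp2, whose product binds class 3 semaphorins and lymphangiogenic VEGF, was at 9.3 and 8.3 RPKM in ZnF4, 0.1 and 0.1 in wild type and 0.1 and 0.3 in ZnF1. Both ZnF4 libraries stood far above the other 4, whose values lay within 0.2 RPKM of each other. The log2 fold change against wild type was 3.95 (SE 0.27, adjusted p = 0.00275), rank 2 from the most increased of 10322 tested genes. Its paralogue Nrp1, also a VEGF co-receptor, was at 4.4 and 4.3 RPKM in ZnF4, 0.4 and 0.3 in wild type and 0.4 and 1.1 in ZnF1. The 2 genotypes did not overlap, and the log2 fold change was 2.51 (SE 0.33, adjusted p = 0.0104, rank 27). The summed neuropilin RNA was 13.7 and 12.6 RPKM in ZnF4 and between 0.4 and 1.4 in the other 4 libraries.

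Sema5a, a membrane semaphorin with thrombospondin repeats, was at 13.2 and 7.8 RPKM in ZnF4, 0.9 and 1.0 in wild type and 0.7 and 0.3 in ZnF1. The ZnF4 libraries differed from each other but both lay above all others, with a log2 fold change of 2.88 (SE 0.32, adjusted p = 0.00621, rank 13). In order of level, ZnF4 stood above wild type for Nrp2, Nrp1 and Sema5a, whereas wild type and ZnF1 did not differ beyond their spread by the test. In fits without replicate 1 or 2 of wild type or of ZnF4, the log2 fold changes stayed between 2.43 and 4.03 for these 3 genes. Their calls ended there (adjusted p from 0.0520 to 0.165), except that of Nrp2 without wild-type replicate 1. Nrp1 also missed the threshold when no filter on low values was used (adjusted p = 0.0504; range over its alternatives 0.00152 to 0.165).

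Because these 3 genes rose together, the 250 bases before their annotated starts are shown, as given by RefSeq for GRCm38.p6, a later build than the mm9 that the authors mapped to. Ikaros is known to bind sites with the core GGGAA. Capitals mark GGGAA on either strand (TTCCC as read here). The windows lie at chr8:128358823-128359072, plus strand (Nrp1), chr1:62703067-62703316, plus strand (Nrp2) and chr15:32244563-32244812, plus strand (Sema5a).
Nrp1: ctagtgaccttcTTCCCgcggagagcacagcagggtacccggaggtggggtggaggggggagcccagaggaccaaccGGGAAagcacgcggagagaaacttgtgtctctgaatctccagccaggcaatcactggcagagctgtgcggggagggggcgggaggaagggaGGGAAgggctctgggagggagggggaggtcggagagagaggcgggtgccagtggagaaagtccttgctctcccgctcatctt
Nrp2: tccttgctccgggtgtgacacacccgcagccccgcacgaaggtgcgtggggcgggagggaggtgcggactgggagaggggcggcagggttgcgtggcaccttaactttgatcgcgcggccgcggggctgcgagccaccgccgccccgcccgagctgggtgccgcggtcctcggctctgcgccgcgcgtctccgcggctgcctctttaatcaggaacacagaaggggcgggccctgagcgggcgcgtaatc
Sema5a: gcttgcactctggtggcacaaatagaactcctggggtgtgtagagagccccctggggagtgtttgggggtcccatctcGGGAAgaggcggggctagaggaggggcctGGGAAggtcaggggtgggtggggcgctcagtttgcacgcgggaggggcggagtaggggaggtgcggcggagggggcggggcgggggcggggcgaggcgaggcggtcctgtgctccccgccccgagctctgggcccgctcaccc
Nrp1 held 3 matches, whose first bases lay 238, 173 and 82 bases before the start, Sema5a held 2, at 172 and 143 bases, and Nrp2 held 0. The longer TGGGAA, which contains GGGAA, matched once (1 match) in Sema5a and not in Nrp1 or Nrp2. Of the 32851 windows of this length in the RefSeq table, 56.2% held GGGAA and 21.6% held TGGGAA on either strand. These windows were G and C rich, at 64.4% in Nrp1, 72.4% in Nrp2 and 72.0% in Sema5a, against a median of 52.4% over all windows. So were those of Sema4b (64.4% and 72.4%) and Sema7a (66.4%), not called in ZnF4, whereas those of Sema4d were at 55.2%, 52.0% and 52.4%. GGGAA matched 1 and 3 times at the starts of Sema4b and 0, 1 and 2 times at those of Sema4d. At the 4 starts of Sema4a, which was called higher, it matched 3, 0, 3 and 1 times.

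Markers of other cell types known to carry neuropilins were set beside the ZnF4 rise. Of the 4 endothelial genes, Tek and Emcn were listed at 0 in every library, Cdh5 was at 1.6 and 1.8 RPKM in ZnF4 and 1.3 and 2.0 in wild type, and Pecam1, which B cells also express, was at 86.1 and 97.7 in ZnF4 and 96.9 and 90.7 in wild type. The list summed to 87.7 and 99.5 RPKM in ZnF4, 98.2 and 92.7 in wild type and 78.6 and 67.0 in ZnF1. Neither tested gene of the list passed in any comparison. The macrophage gene Emr1 was at 1.5 and 1.0 RPKM in ZnF4 and at 4.8 and 2.4 in wild type, and the plasmacytoid dendritic cell gene Siglech was at 2.3 and 1.9 in ZnF4 and at 1.1 and 4.0 in wild type. The summed macrophage list (6 genes) was 25.8 and 15.0 RPKM in ZnF4 and 30.9 and 9.4 in wild type. Emr1 alone of this list had a negative log2 fold change in ZnF4 (-1.18). The others had 0.06 to 0.80, the median of the 6 was 0.32, and none passed. The plasmacytoid dendritic cell list (6 genes) summed to 387.3 and 397.8 RPKM in ZnF4 and 294.2 and 273.0 in wild type, and most of the sum was Irf8, which B cells also express, at 358.9 and 363.6 in ZnF4 and 245.1 and 199.3 in wild type. Bst2 and Cox6a2 of that list were lower in ZnF4 than in wild type. Bst2 was at 24.5 and 30.0 RPKM against 43.7 and 56.0, and Cox6a2 at 0.9 and 0.8 against 3.9 and 12.5. Ccr9, at 0.6 and 0.7, lay between the wild-type 0.4 and 1.1, and Klk1 was at 0.1 and 0.8 against 0.0 and 0.1. Ccr9 and Klk1 did not reach the filter. Of the 4 tested genes of the list Cox6a2 was called lower and none higher, and their median log2 fold change was -0.46. The part of these cells in the neuropilin rise was not tested. In bulk RNA, a change in the number of cells with a transcript and a change in its level per cell cannot be told apart.

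Sema4a was at 14.5 and 9.8 RPKM in ZnF4, 1.3 and 1.8 in wild type and 3.2 and 12.6 in ZnF1. Both ZnF4 libraries and ZnF1 replicate 2 were high, so ZnF4 and wild type did not overlap but ZnF4 and ZnF1 did. The rise in ZnF4 was narrowly called (log2 fold change 2.61, SE 0.53, adjusted p = 0.0470, rank 21). It was not called without wild-type replicate 1 (2.43), its replicate 2 (2.79), ZnF4 replicate 1 (2.34) or its replicate 2 (2.88), with adjusted p from 0.227 to 0.290. With a pseudocount of 1, no filter, quantile normalization, no intensity trend or a term for sex it was not called either, with fold changes from 2.29 to 2.61 and adjusted p from 0.0537 to 0.148.

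The summed level of 10 granulocyte and monocyte markers was, like Sema4a, above wild type in both ZnF4 and both ZnF1 libraries, and their part in the result was not tested. None of the 10 was listed at 0, and the sum was 1389 and 1459 RPKM in ZnF4 against 364.8 and 538.3 in wild type. By the limma test 0 of the 10 passed in any comparison. In ZnF4 against wild type 8 were higher without overlap, and Csf1r was lower, at 2.1 and 1.3 RPKM against 2.8 and 2.2. Libraries did not overlap, in either direction, for 50.4% of all tested genes in this comparison. ZnF1 replicate 2 had the highest value of all 10 and a sum of 5934, with Sema4a at 12.6, inside the ZnF4 range. Of the classical dendritic cell genes, the integrin gene Itgax was listed at 0 in both ZnF4 libraries and at most at 1.0 RPKM elsewhere, whereas the transcription factor gene Zbtb46 was at 0.6 and 1.4 in ZnF4, 0.1 and 0.1 in wild type and 0.3 and 0.3 in ZnF1. The 5 classical dendritic cell markers summed to 1.5 and 2.8 RPKM in ZnF4 and 1.4 and 2.0 in wild type.

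**Figure D2:**
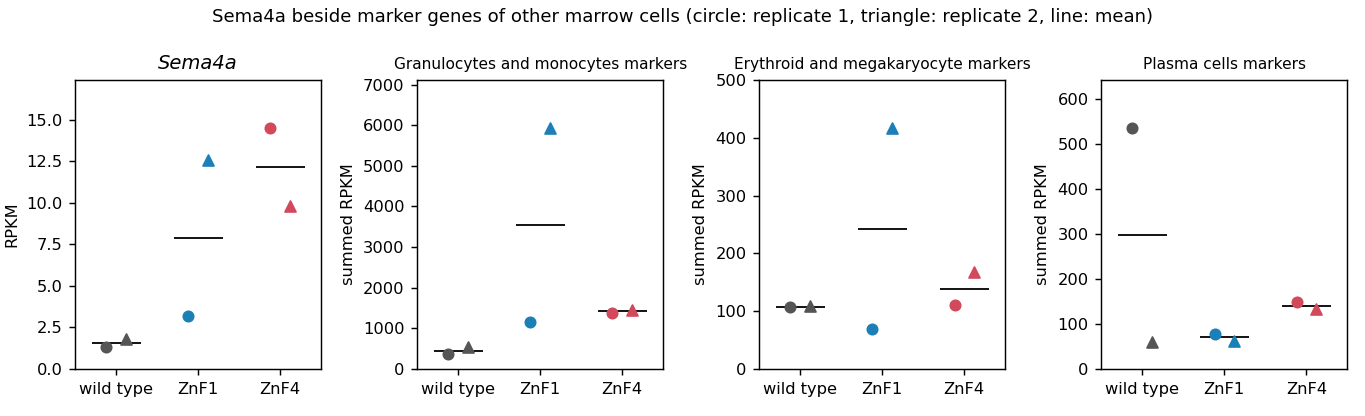
RPKM of Sema4a beside the summed RPKM of markers of granulocytes and monocytes (10 genes), erythroid cells and megakaryocytes (6) and plasma cells (4), for each library by genotype, with the mean as a line. ZnF1 replicate 2 is high in Sema4a and in the granulocyte and erythroid sums. The ZnF4 libraries are also high in Sema4a and have granulocyte sums of 1389 and 1459.

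Plxnd1, whose product binds Sema3E and Sema4A, was at 5.5 and 3.8 RPKM in ZnF4, 11.5 and 15.6 in wild type and 9.6 and 9.9 in ZnF1. The 3 genotypes did not overlap, with wild type highest, ZnF1 next and ZnF4 lowest, and the log2 fold change in ZnF4 was -1.45 (SE 0.21, adjusted p = 0.0153). Plxnb2, a receptor of class 4 semaphorins, was at 6.0 and 5.5 RPKM in ZnF4, 11.9 and 12.6 in wild type and 7.4 and 10.2 in ZnF1, in the same order without overlap. Its log2 fold change in ZnF4 was -1.03 (SE 0.18, adjusted p = 0.0272). From most decreased, Plxnd1 had rank 51 and Plxnb2 rank 129 of 10322 tested genes.

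Neither plexin fall was called without replicate 1 or 2 of wild type or of ZnF4. The fold changes then lay between -1.69 and -1.21 for Plxnd1 (adjusted p 0.0723 to 0.165) and between -1.09 and -0.97 for Plxnb2 (0.165 to 0.259). With a term for sex they were -1.34 (adjusted p = 0.0520) and -1.11 (0.0530), and without a filter on low values the adjusted p was 0.0759 and 0.0775; over all alternatives it ranged from 0.0111 to 0.165 for Plxnd1 and 0.00871 to 0.259 for Plxnb2. The 250 bases before the start of Plxnd1 (chr6:115995006-115995255, minus strand, GRCm38.p6) are shown for comparison with the genes that rose.
Plxnd1: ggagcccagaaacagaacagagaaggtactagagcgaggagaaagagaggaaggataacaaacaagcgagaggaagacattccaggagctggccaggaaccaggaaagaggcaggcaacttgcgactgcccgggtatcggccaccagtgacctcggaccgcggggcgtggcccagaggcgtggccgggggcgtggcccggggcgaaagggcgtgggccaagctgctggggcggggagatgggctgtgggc
GGGAA was not found in this window on either strand, and 64.8% of its bases were G or C. Plxnb2 had 2 annotated starts, with 3 and 2 matches of GGGAA.

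The fall of these plexins was set against a rise of Plxnc1, the receptor of Sema7A, from the list of other plexins. Plxnc1 was at 12.0 and 9.8 RPKM in wild type, 11.9 and 12.5 in ZnF1 and 18.3 and 20.0 in ZnF4 (log2 fold change 0.79, SE 0.14, adjusted p = 0.0339). Wild type and ZnF1 overlapped at the lower level, and ZnF4 lay above both. The direct difference of the mutants did not pass (log2 difference 0.63, adjusted p = 0.0538 by limma). Plxnb2 and Plxnd1 together made 58.4% and 63.4% of the summed RPKM of the 9 plexin genes in wild type, 50.6% and 53.3% in ZnF1 and 29.6% and 25.2% in ZnF4. Plxnc1 alone made 29.9% and 22.0% in wild type against 47.2% and 54.2% in ZnF4. The plexin sum itself was 40.1 and 44.5 in wild type, 33.6 and 37.7 in ZnF1 and 38.8 and 36.9 in ZnF4. The rise of Plxnc1 was not called without wild-type replicate 1 (0.93), its replicate 2 (0.65), ZnF4 replicate 1 (0.85) or its replicate 2 (0.73), nor with a term for sex, without a filter on low values (adjusted p = 0.0759) or without an intensity trend (0.0503; range over its alternatives 0.0268 to 0.265).

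**Figure D3:**
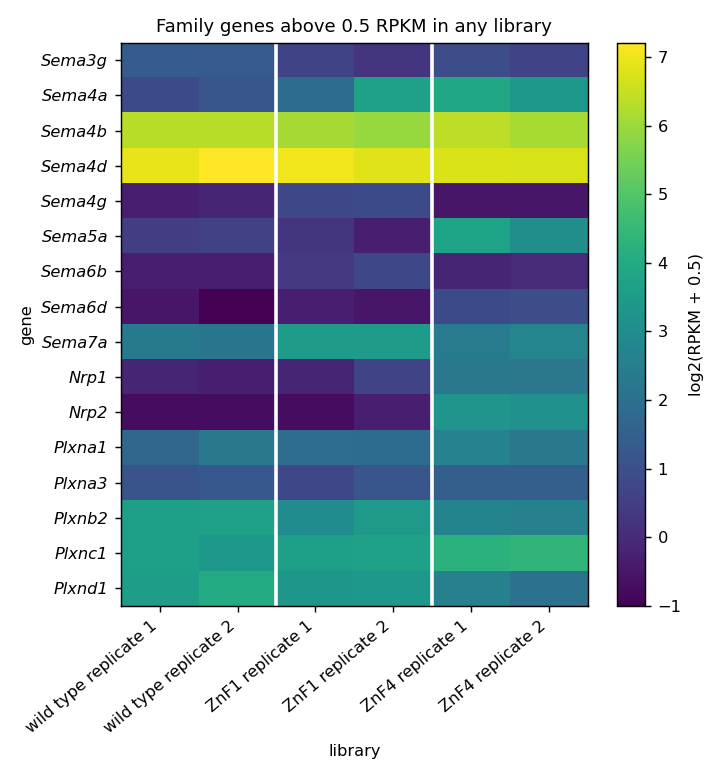
Level on the log2(RPKM + 0.5) scale (colour) of the semaphorin, neuropilin and plexin genes that exceeded 0.5 RPKM in any library (rows) in the 6 libraries (columns, white lines between genotypes). Sema4d and Sema4b are brightest in every library, Nrp1, Nrp2 and Sema5a are brighter in the ZnF4 columns than in the other 4, and Plxnc1 is brightest of the plexins in ZnF4.

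The abundant B cell semaphorins moved little in ZnF4. Sema4d was at 106.4 and 104.2 RPKM, below wild type at 122.5 and 147.5 without overlap, with a log2 fold change of -0.35 (SE 0.15, adjusted p = 0.281). Sema4b was at 82.9 and 69.3 RPKM, on both sides of the wild-type 80.1 and 79.9 (-0.08, SE 0.13, adjusted p = 0.815). Sema7a was at 4.8 and 6.2 RPKM, just above the wild-type 4.5 and 4.1 (0.31, SE 0.17, adjusted p = 0.385). None of these 3 passed, which does not show that they were unaffected. The share of Sema4d and Sema4b in the semaphorin sum was 83.9% and 86.2% in ZnF4, against 95.4% and 95.8% in wild type, while the sum was 226 and 201 RPKM against 212 and 237.

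In the ZnF1 mutant Sema7a alone was called. Its level was 10.8 and 10.9 RPKM in ZnF1, 4.8 and 6.2 in ZnF4, and 4.5 and 4.1 in wild type. Both ZnF1 libraries stood above the other 4, and the log2 fold change against wild type was 1.24 (SE 0.17, adjusted p = 0.0430, rank 230). Thus 1 of the 9 was called higher, where 0.0969% of all tested genes were, and none was called lower, where 0.174% were. At an unadjusted p under 0.05, 11.9% of all genes passed. The 2 genotypes did not overlap for 6 of the 9, as for 41.5% of all tested genes, and the median log2 fold change of the 9 was -0.15 against -0.002 for all tested genes.

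The size of the Sema7a rise was steady and its call was not. The fold change lay between 1.16 and 1.32 over 16 alternatives, of which 5 called it, and the adjusted p ranged from 0.0180 to 0.347. Leaving out wild-type replicate 1 gave 1.30 (adjusted p = 0.274) and its replicate 2 gave 1.18 (0.347). It was 1.24 without ZnF1 replicate 2 (0.126) and 1.24 without either ZnF4 library (0.186 and 0.191). A term for sex gave 1.16 (0.150). The granulocyte marker sums of the ZnF1 libraries were 1152 and 5934 RPKM, both above the 364.8 and 538.3 of wild type, and Sema7a was at 10.8 and 10.9. The part of granulocytes in the Sema7a result was not tested. The summed macrophage list, at 41.3 and 33.6 RPKM in ZnF1, was above the 9.4 to 30.9 of the other 4 libraries, as Sema7a was. None of its 6 genes passed in ZnF1 (limma, adjusted p from 0.315 to 0.755), and its part in the Sema7a result was not tested. The 250 bases before its start (chr9:57939862-57940111, plus strand, GRCm38.p6) are shown because Sema7a was the gene called in ZnF1.
Sema7a: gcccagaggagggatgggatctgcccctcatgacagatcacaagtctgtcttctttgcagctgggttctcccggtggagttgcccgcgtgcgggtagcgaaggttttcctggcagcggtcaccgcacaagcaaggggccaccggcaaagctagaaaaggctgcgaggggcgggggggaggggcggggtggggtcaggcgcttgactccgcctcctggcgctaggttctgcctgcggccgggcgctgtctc
GGGAA was not found in this window on either strand.

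The other 8 genes did not pass in ZnF1. Sema4a had the largest fold change, 1.77 (SE 0.53, adjusted p = 0.244), from values of 3.2 and 12.6 RPKM, and it was 0.86 without ZnF1 replicate 2 (adjusted p = 0.456) and 2.69 without ZnF1 replicate 1 (adjusted p = 0.00206, called). Plxnb2 (-0.47), Plxnd1 (-0.44), Sema4b (-0.30) and Sema5a (-0.56) were below wild type in both libraries, with adjusted p from 0.353 to 0.557. Sema4d was at 131.7 and 111.9 RPKM and overlapped wild type (-0.15), as did Nrp1 (0.50) and Nrp2 (0.21).

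**Figure D4:**
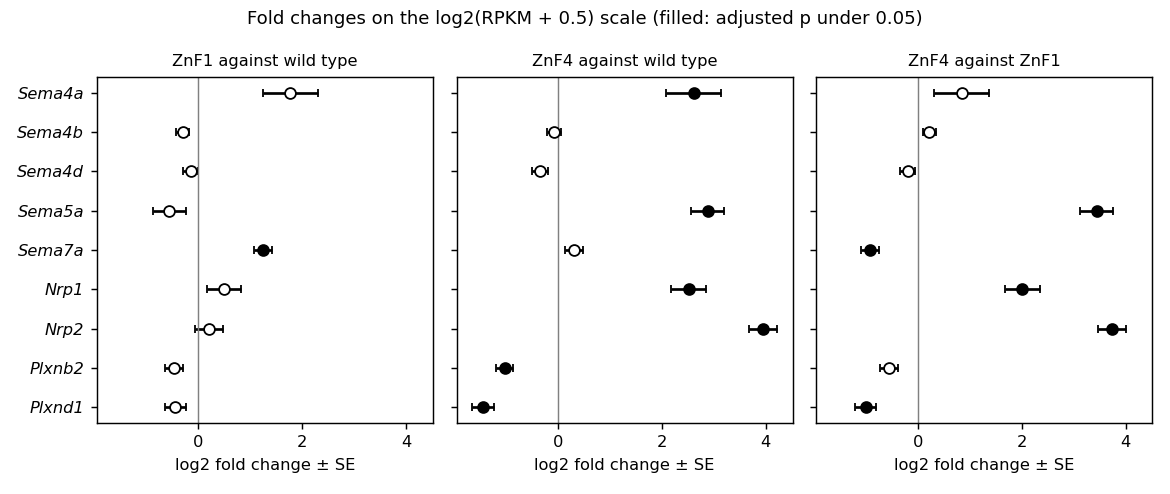
Log2 fold change of each gene on the log2(RPKM + 0.5) scale in the 3 comparisons, with bars of 1 SE from limma over 6 libraries, filled where the adjusted p was under 0.05. Sema7a is filled on the right of 0 in ZnF1 against wild type, and 4 genes on the right and 2 on the left are filled in ZnF4 against wild type.

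The mutants were also compared directly, since a call in one mutant and not in the other does not show a difference. Nrp2 (log2 difference 3.74, SE 0.27, adjusted p = 0.00158), Sema5a (3.44, SE 0.32, adjusted p = 0.00279) and Nrp1 (2.01, SE 0.33, adjusted p = 0.0185) were higher in ZnF4 than in ZnF1. Plxnd1 (-1.01, SE 0.21, adjusted p = 0.0397) and Sema7a (-0.93, SE 0.17, adjusted p = 0.0248) were lower in ZnF4. Of all tested genes 2.69% were called higher and 2.08% lower in this comparison, and libraries did not overlap for 8 of the 9 genes, as for 46.8% of all. The median log2 difference of the 9 was 0.22, against -0.03 for all tested genes. Sema4a (0.84, adjusted p = 0.436), Plxnb2 (-0.56, adjusted p = 0.130), Sema4b (0.22) and Sema4d (-0.20) did not pass. Both mutants share the wild-type libraries, so their changes against wild type are not independent of each other.

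The direct difference of Nrp2, Sema5a or Nrp1 was called without any single wild-type or ZnF1 library, and it was not called without ZnF4 replicate 1 (3.67, 3.08 and 2.0; adjusted p = 0.0825, 0.0831 and 0.178) or ZnF4 replicate 2 (3.82, 3.81 and 2.03; adjusted p = 0.0577, 0.0531 and 0.172). For Sema7a, leaving out any single library but ZnF1 replicate 1 ended the call, with values from -1.10 to -0.76. For Plxnd1, leaving out any of the 6 ended it, with values from -1.25 to -0.77. Without a filter on low values Nrp1, Sema7a and Plxnd1 were not called (adjusted p = 0.0581, 0.0663 and 0.106), nor were Sema7a and Plxnd1 in a fit of ZnF1 and ZnF4 alone (0.0656 and 0.0762). With quantile normalization or without an intensity trend Plxnd1 was not called either. The adjusted p over all alternatives ranged from 0.00551 to 0.178 for Nrp1, 0.0240 to 0.171 for Sema7a and 0.0352 to 0.234 for Plxnd1. Sema4a was called higher in ZnF4 without ZnF1 replicate 2 (1.75, adjusted p = 0.0204), and Plxnb2 lower without ZnF1 replicate 1 (-0.78, adjusted p = 0.0386).

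The rest of the pathway was described from 5 lists with 71 names, of which 70 were in the table and 30 reached the filter. In ZnF4 against wild type 4 of the 30 were called higher and 0 lower by limma, where 1.78% and 1.41% of all tested genes were. In ZnF1 none was called, where 0.0969% were called higher and 0.174% lower, and between the mutants 2 were higher in ZnF4 and 0 lower, where 2.69% and 2.08% were. Their median log2 fold change was 0.10 in ZnF4 and 0.06 in ZnF1, against -0.02 and -0.002 for all tested genes. Secreted class 3 semaphorins, the usual neuropilin ligands, were low: of 7 in the table, 6 were at most at 0.2 RPKM in any library, and Sema3g was at 2.1 and 2.0 RPKM in wild type, 1.1 and 0.7 in ZnF1 and 1.4 and 1.1 in ZnF4. It did not pass in any comparison (adjusted p from 0.244 to 0.550). The other 8 semaphorins listed, of classes 4 to 6, did not reach the filter, with at most 1.4 RPKM in any library, and were not tested. Sema6d was at 1.3 and 1.4 RPKM in ZnF4, 0.2 and 0.0 in wild type and 0.3 and 0.2 in ZnF1. Sema4g was at 1.2 and 1.3 RPKM in ZnF1, 0.3 and 0.4 in wild type and 0.2 in both ZnF4 libraries. Sema6b was at 0.8 and 1.2 RPKM in ZnF1, 0.3 in both wild-type libraries and 0.4 and 0.5 in ZnF4.

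Vegfa, which encodes the VEGF ligand of Nrp1, was at 1.3 and 1.4 RPKM in wild type, 2.6 and 3.7 in ZnF1 and 5.8 and 3.6 in ZnF4. It rose in ZnF4 (log2 fold change 1.46, SE 0.27, adjusted p = 0.0358), while ZnF1 and ZnF4 overlapped. Vegfb, the other VEGF gene tested, lay between 7.0 and 9.1 RPKM in all libraries. Among binding partners, Cd72, the B cell receptor of Sema4D, was at 512.0 and 689.5 RPKM in wild type and 402.9 and 355.6 in ZnF4 (-0.65, adjusted p = 0.143). Cd74, the invariant chain of MHC class II, lay between 5700 and 9205 RPKM. Of the other plexins, Plxna1 lay between 2.8 and 5.8 RPKM and did not pass (adjusted p from 0.241 to 0.922).

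Of 19 tested intracellular partners, 2 were called higher in ZnF4, Rnd3 and Arhgef12, where 1.78% of all tested genes were. Rnd3, a small GTPase gene related to the plexin-binding Rnd1, was at 0.5 and 1.2 RPKM in wild type, 0.6 and 1.9 in ZnF1 and 12.9 and 9.2 in ZnF4 (log2 fold change 3.13, SE 0.42, adjusted p = 0.0116). It was also higher in ZnF4 than in ZnF1 (2.81, adjusted p = 0.0143). Arhgef12, a RhoA exchange factor that binds B-class plexins, was at 3.3 and 2.7 RPKM in wild type, 3.0 and 4.1 in ZnF1 and 6.2 and 7.3 in ZnF4. It rose against wild type (1.05, SE 0.21, adjusted p = 0.0434), but its difference between the mutants did not pass (0.85, adjusted p = 0.0646). Fes, a tyrosine kinase linked to plexin A signalling, was at 71.8 and 57.9 RPKM in ZnF4 and 9.2 and 23.2 in ZnF1, a called difference (2.10, adjusted p = 0.0291). Against wild type at 16.7 and 25.3 RPKM it did not pass (1.63, adjusted p = 0.0835). The most abundant partners, Rap1b (126.1 to 188.4 RPKM) and Cfl1 (46.1 to 100.4), were not called.

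The calls of Vegfa, Rnd3 and Arhgef12 in ZnF4 ended without any of wild-type replicate 1 (log2 fold changes 1.42, 2.75 and 1.18), its replicate 2 (1.5, 3.51 and 0.93), ZnF4 replicate 1 (1.15, 2.90 and 1.16) or its replicate 2 (1.77, 3.36 and 0.94). Fes against wild type was called without either ZnF1 library (1.63; adjusted p = 0.00655 without replicate 1 and 0.00639 without replicate 2). Its difference between the mutants was not called without wild-type replicate 1 (2.10), its replicate 2 (2.10), ZnF4 replicate 1 (1.95) or its replicate 2 (2.25), and that of Rnd3 was not called without ZnF4 replicate 1 (2.58) or ZnF4 replicate 2 (3.04). Without a filter on low values none of these calls was made, and with a term for sex those of Vegfa and Arhgef12 in ZnF4 were not. That of Vegfa was not made with quantile normalization either, nor that of Fes between the mutants in a fit of ZnF1 and ZnF4 alone.

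For each gene called in any comparison, the 3 tested genes with the most similar profile were found by the smallest Euclidean distance between centred log2 profiles over the 6 libraries. For Nrp2 they were Apba1 (distance 0.561), Tmem176b (0.978) and Cyp4f16 (1.05), and those of Nrp1 included Trerf1 (0.448) and Plekha8 (0.750). Apba1 was at 12.1 and 9.4 RPKM in ZnF4 and between 0.3 and 1.0 in the other libraries. Sema5a was nearest to Rab3b (0.404) and to Ccl22 (0.656), a chemokine gene at 10.9 and 6.2 RPKM in ZnF4 and between 0.6 and 1.1 elsewhere; the third nearest had no gene symbol. Sema4a was nearest to App (0.586), Igf1r (0.774) and Igfbp4 (0.844), all of them high in ZnF1 replicate 2 as well. App, the amyloid precursor gene, was at 15.4 and 14.9 RPKM in ZnF4, 12.3 in that ZnF1 library and 4.0 in the other.

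The nearest profiles to Sema7a were those of Rnase4 (distance 0.297), Hpgd (0.399) and Spic (0.416). Spic, a transcription factor gene known from red pulp macrophages, was at 2.4 and 2.2 RPKM in ZnF1, 0.8 and 0.9 in ZnF4, and 1.0 and 0.5 in wild type. Plxnd1 was nearest to E2f2 (0.308), Padi2 (0.321) and Rcor2 (0.341), and Plxnb2 to Palm (0.272), Plekhg3 (0.278) and Myl6b (0.332). E2f2, a cell cycle transcription factor gene, was at 89.0 and 113.1 RPKM in wild type, 79.3 and 84.7 in ZnF1 and 45.6 and 39.6 in ZnF4. Many genes share a 2-library pattern, so likeness over 6 libraries is a description.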

How the data were processed

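Poly(A)-enriched RNA of sorted cells was made into libraries with an Illumina TruSeq kit, per the labels. The authors deposited one table of RPKM values with 26531 RefSeq transcript rows and their lengths; 1 further row without values was left out. Mapping to mm9 with TopHat and the use of bedtools are given in the submitters' processing notes; versions, counting rules and strandedness are not given in the sources used here, so reads of overlapping or antisense genes, or of isoforms, may be mixed. Multiplied by transcript length, the values accounted for 0.775 to 0.833 of the scaling total of a library. Whole reads could not be recovered: among transcripts under 150 bases, no assumed read total placed over 28.4% of values within 0.1 of a whole read. Depth is therefore unknown, and no counting interval is given.

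Genotype means of log2(RPKM + 0.5) were fitted for 10322 genes in all 6 libraries by a linear model (limma 3.58.1 in R 4.3.3, eBayes with an intensity trend, two-sided). Tables and plots were made in Python 3.11.15. The fit was tested on simulated data with known changes, drawn with normal noise of the fitted spreads. Such data meet the assumptions of the model and hold no effect of sex, other cells or rounding. The test therefore does not show how the fit performs on these libraries. In all, 16 alternatives were run. The genes, lists and rules were chosen with earlier results of these data known. The rule named all 9 genes, the called and the 2 most abundant genes of each pathway list, and the 3 most similar profiles of each called gene. Sema4g, Sema6b and Sema6d, below the filter, were named in addition. Of the marker lists, B cells, T cells, endothelial cells, erythroid cells and megakaryocytes, and marrow stroma served as checks. Promoter windows were matched by symbol, and all 9 genes had at least 1. Protein sequences were not used here. One gene among the nearest profiles is not reported here.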

Additional observations from a re-analysis of the deposited data

Results flagged for a closer look

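The effects of the 2 mutations differed for 5 of the 9 genes by the direct test (limma, adjusted p under 0.05). The log2 difference, ZnF4 minus ZnF1, was 3.74 for Nrp2, 3.44 for Sema5a, 2.01 for Nrp1, -1.01 for Plxnd1 and -0.93 for Sema7a. Of all tested genes 2.69% were called higher and 2.08% lower in ZnF4. Nrp1, Nrp2 and Sema5a had passed the filter on low values only through ZnF4. These calls ended when either ZnF4 library was left out, as did nearly all calls of this comparison over the whole table. With any single library left out, the differences lay between 3.54 and 3.95 for Nrp2, 3.08 and 3.81 for Sema5a and 1.6 and 2.43 for Nrp1. For Plxnd1 they lay between -1.25 and -0.77, and for Sema7a between -1.1 and -0.76.

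A further transcript row of Nrp2, of 4727 bases and not used above, held 1.0 RPKM in ZnF4 replicate 1 and 0.6 in ZnF4 replicate 2 and was listed at 0 in the wild-type and ZnF1 libraries. Another Nrp2 row, of 6741 bases, was listed at 0 in all 6 libraries. How reads were divided among rows of one gene is not given in the sources used here, so these values do not measure isoforms.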

How the results depend on the processing

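With 2 libraries per genotype, single libraries decide most calls, while the fold changes of called genes kept their sign. Leave-one-out fits called 0 to 2 of the 9 genes in ZnF1 against wild type (1 with all libraries), 0 to 6 in ZnF4 against wild type (6) and 0 to 5 between the mutants (5). In ZnF1, 0 were called without a filter on low values, with quantile normalization, in the fit of only the 2 genotypes, without an intensity trend, with the replicate block and with a term for sex. In ZnF4, 2 were called without a filter and 3 with a term for sex; between the mutants, 2 without a filter and 3 in the fit of only the 2 genotypes. Directions turned for Sema4b in ZnF4 (0.042 with quantile normalization, 0.026 with a term for sex, and -0.21 to 0.051 with 1 library left out), Sema4a between the mutants (-0.076 to 1.75 with 1 left out), Rnd3 in ZnF1 (-0.25 to 0.88) and Fes in ZnF1 (-1.12 to 0.17); none of these was called with all libraries, and the cause was not tested.

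Over the whole table, 28 genes were called in ZnF1, 330 in ZnF4 and 493 between the mutants. These counts were 0, 189 and 309 without a filter, 0, 594 and 249 in the fit of only the 2 genotypes, and 0, 171 and 476 with a term for sex; quantile normalization gave 13 in ZnF1. At an unadjusted p under 0.05, the ZnF1 counts of 0 stood beside 1596, 1053 and 863. Without one library they ranged from 0 to 512, 0 to 591 and 0 to 814. The labels give no pairing of same-numbered replicates, and whether these shared a batch is not known. Their deviations correlated at 0.28 (wild type and ZnF1), -0.03 (wild type and ZnF4) and 0.21 (ZnF1 and ZnF4). The replicate block gave 27, 327 and 529 calls. It ended the calls of Sema7a in ZnF1 (adjusted p = 0.0611), Plxnd1 between the mutants (0.0538) and Arhgef12 in ZnF4 (0.0517). Nrp1 was not tested with a minimum mean of 3 RPKM. Depth is unknown, and levels near the step of 0.1 RPKM, such as Nrp2 outside ZnF4, carry little precision.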
